A study of Homo sapiens with 11 samples.

Results

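PLIN2, PLIN3, DGAT1, DGAT2, PNPLA2, CPT1A, ACADVL, PPARD, ANGPTL4 and PDK4, 10 genes of lipid droplets and fatty acid oxidation, were taken by symbol from expression tables of A549, an established line from a human lung adenocarcinoma. All 10 were found among 23608 gene symbols, each at 1 locus and with an estimate marked as valid in all 11 libraries. The cells had received cigarette smoke condensate (CSC, the particles of smoke collected in a solvent) or the vehicle DMSO. The 4 groups were DMSO for 48 hours (n = 2, replicates 2 and 3), CSC for 48 hours (n = 3), DMSO for 2 weeks (n = 3) and CSC for 2 weeks (n = 3). The labelled CSC dose is 20 µM, quoted as written, since a mixture has no molar concentration. Nothing in the labels tells whether the replicates of this 1 line were grown apart, so the p-values speak for the spread among these libraries, which may be technical. By its title, the study asked among other things which enhancers tobacco smoke induces.

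Lipid droplets are organelles that store triacylglycerol and sterol esters under a coat of perilipins. The last step of triacylglycerol synthesis is made by DGAT1 and DGAT2, and the first step of its breakdown by the lipase ATGL, the product of PNPLA2. Freed fatty acids enter mitochondria through the carnitine shuttle, whose rate-limiting enzyme is CPT1A, and are shortened there by beta-oxidation, which ACADVL starts for very long chains. Fatty acids also bind the nuclear receptors of the PPAR family, PPARD among them, and PLIN2, CPT1A, ANGPTL4 and PDK4 are known as PPAR-induced genes.

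The values are FPKM, fragments per transcript length and per mapped fragments, which allow the levels of genes to be compared within a library. The depth in reads is unknown. Judged by the width of the deposited bounds, relative depth lay between 1 and 1.57 in 10 libraries and was 2.85 in CSC 2 weeks replicate 2. Differences were tested with limma on log2(FPKM + 0.5) over 12506 genes, with p-values adjusted by Benjamini-Hochberg, and a gene counted as called where the adjusted p was under 0.05. All log2 changes below are on that scale, which understates the change of weakly expressed genes. Where all libraries of 1 group are said to lie above or below those of another, the FPKM are as deposited. The scale of the libraries matters for 2 weeks against 48 hours, called time below. With the FPKM as deposited, log2 changes over all genes had a median of 0.19 for time in CSC. There 1536 genes were higher against 172 lower, but with a common sum of FPKM 84 were higher and 458 lower. For CSC at 2 weeks the split was 376 higher and 300 lower as deposited, and 264 and 486 with a common sum. For time in DMSO it was 82 and 14, and 32 and 14. The median of all genes was 0.09 for time in DMSO and for CSC at 2 weeks, and 0.00 for CSC at 48 hours. The exposure was checked on CYP1B1 and TIPARP, known targets of the aryl hydrocarbon receptor: CYP1B1 lay between 5.43 and 12.6 FPKM in the DMSO libraries and between 26 and 72.1 in the CSC libraries, and TIPARP between 8.20 and 12.9 and between 41.3 and 51.1. All 7 epithelial markers (EPCAM, CDH1, KRT7, KRT8, KRT18, KRT19, CLDN4) reached an FPKM of 1 in each group, with sums of 3021 and 3082 in DMSO at 48 hours, 2131 to 2447 in CSC at 48 hours, 4272 to 4917 in DMSO at 2 weeks and 2937 to 4028 in CSC at 2 weeks. Of 7 hepatocyte markers 0 reached an FPKM of 1. Of 7 leukocyte and macrophage markers 1 did, CD14, at 0.68 to 3.76 FPKM, while the leukocyte hallmark PTPRC did not exceed 0.03.

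Sequences before the start sites of 3 members are shown because PLIN2 was the member that moved with CSC, while ANGPTL4 and PDK4 were those with the largest changes over time. They are the 250 bases before the RefSeq start (build GRCh38.p14), 5′ to 3′ on the gene's strand: PLIN2 at chr9:19127493-19127742 on the minus strand, ANGPTL4 at chr19:8363905-8364154 on the plus strand and PDK4 at chr7:95596517-95596766 on the minus strand. Capitals mark GCGTG (core letters of the aryl hydrocarbon receptor element), ACGTG (core letters of the hypoxia element) and AGGTCA (a nuclear receptor half-site), on either strand. A pair of half-sites in the same direction, 1 base apart, as PPAR bind them, was searched as well.
PLIN2: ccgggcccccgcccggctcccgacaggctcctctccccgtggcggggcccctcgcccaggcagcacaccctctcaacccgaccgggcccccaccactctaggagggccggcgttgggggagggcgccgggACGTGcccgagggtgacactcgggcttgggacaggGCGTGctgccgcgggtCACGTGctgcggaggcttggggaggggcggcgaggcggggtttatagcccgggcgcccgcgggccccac
ANGPTL4: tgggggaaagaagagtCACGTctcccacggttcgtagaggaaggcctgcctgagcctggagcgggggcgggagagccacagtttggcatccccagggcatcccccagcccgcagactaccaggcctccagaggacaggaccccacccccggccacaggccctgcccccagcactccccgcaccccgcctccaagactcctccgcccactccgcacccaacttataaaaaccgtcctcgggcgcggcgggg
PDK4: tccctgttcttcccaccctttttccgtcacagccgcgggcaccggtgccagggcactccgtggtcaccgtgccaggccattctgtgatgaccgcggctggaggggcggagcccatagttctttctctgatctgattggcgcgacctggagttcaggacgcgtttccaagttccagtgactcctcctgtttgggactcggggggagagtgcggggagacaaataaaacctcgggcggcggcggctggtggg
The PLIN2 window held GCGTG once, 85 to 81 bases before the start, and ACGTG 3 times. A pair of these ACGTG matches lie on opposite strands of the same letters, 69 to 64 bases before the start. The ANGPTL4 window held 1 ACGTG, 234 to 230 bases before the start, and the PDK4 window none of the 4 motifs. Of all 35116 windows in the table, 32.2% held GCGTG, 18.5% ACGTG, 12.1% AGGTCA and 0.017% the pair. These matches describe letters and show no binding. Of the 8 members with a window, 4 held GCGTG (PLIN2, PLIN3, ACADVL, PPARD), 3 held ACGTG (PLIN2, ANGPTL4, ACADVL), 1 held AGGTCA (PNPLA2) and 0 held the pair. The shares of all windows count each window, whereas these 8 members have 9 windows. ACADVL has another window, which held none of the 4 motifs. Matched letter by letter to GRCh37, the build of the deposited tables, the nearest 114 bases of the PLIN2 window, 97 of the PDK4 window and 28 of the ANGPTL4 window lie inside the deposited gene's locus, whose start is further upstream. The CPT1A window, counted among the 8 but not shown, lies 2346 bases upstream of the deposited CPT1A locus, with 0 bases inside. Its lack of the 4 motifs therefore does not describe the bases next to that locus.

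**Figure D1:**
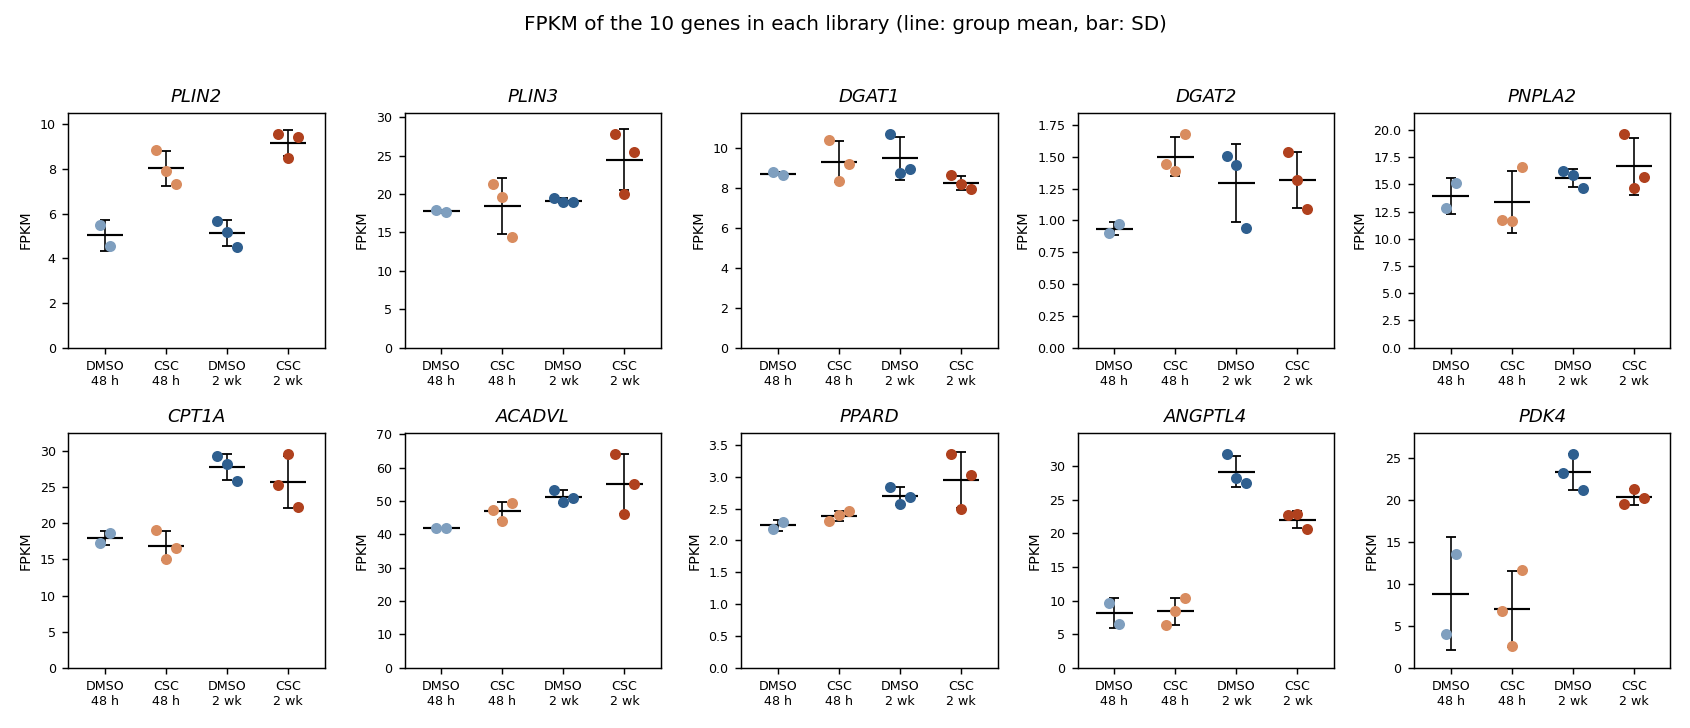
FPKM (vertical axis, from 0) of each of the 10 genes in each of the 11 libraries, by group. Points are libraries, lines group means and bars SD. PLIN2 stands between 7.32 and 9.56 in all CSC libraries and between 4.51 and 5.67 in all DMSO libraries. In these FPKM as deposited, ANGPTL4, PDK4, CPT1A and, by a narrow margin, PPARD separate 2 weeks from 48 hours.

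PLIN2, the perilipin that coats lipid droplets in most non-adipose cells (chromosome 9, positions 19115759 to 19127604, hg19), was higher with CSC at both durations and passed the test at 2 weeks. At 48 hours it stood at 5.51 and 4.54 FPKM in DMSO replicates 2 and 3, and at 8.85, 7.90 and 7.32 in CSC replicates 1 to 3. At 2 weeks it stood at 5.67, 5.18 and 4.51 in DMSO and at 9.56, 8.49 and 9.44 in CSC. The lowest CSC library lay above the highest DMSO library over both durations, an order found in 1.71% of all genes tested and in 1 of the 10 members. The log2 change was 0.79 ± 0.12 (SE) at 2 weeks (limma adjusted p = 0.00228) and 0.63 ± 0.13 at 48 hours, where it missed the threshold (adjusted p = 0.0724). The 2 effects rest on different libraries, and their difference was 0.16 (95% interval -0.22 to 0.54, adjusted p = 0.850). At 2 weeks PLIN2 stayed past the threshold in all 22 alternative fits, with adjusted p between 0.00136 and 0.0185. At 48 hours it passed with median-of-ratios scaling (0.0348), a common sum (0.0368), quantile normalization (0.0492) and without CSC 48 hours replicate 3 (0.0421), and over all 22 alternatives its adjusted p ranged from 0.0348 to 0.512, the highest without DMSO 48 hours replicate 3.

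Between the durations PLIN2 had small changes: its log2 change from 48 hours to 2 weeks was 0.03 in DMSO (95% interval -0.26 to 0.31) and 0.18 in CSC (-0.07 to 0.44), and both turned negative under 2 or more other scalings. PLIN2 was the only member called for CSC at 2 weeks, 1 of 10 higher and 0 lower, against 5.41% of all genes called, 3.01% higher and 2.4% lower. At 48 hours 0 of 10 members were called by limma, against 0.288% of all genes (0.104% higher, 0.184% lower), and 2 members (PLIN2 and DGAT2) had an unadjusted p under 0.05, as 8.49% of all genes did. At 2 weeks 3 members (PLIN2, PLIN3 and ANGPTL4) had one, against 24.6% of all genes. In the difference of the CSC effects 0 of 10 were called, against 0.04% of all genes (0.008% higher, 0.032% lower), and 0 members had an unadjusted p under 0.05, against 876 of all 12506 genes. The median log2 change of the 10 members was 0.06 at 48 hours and 0.05 at 2 weeks, beside 0.00 and 0.09 over all genes. All CSC libraries of 48 hours lay above all DMSO libraries in 4 members (PLIN2, DGAT2, ACADVL, PPARD), against 11% of all genes, and below them in 0, against 11.8%. At 2 weeks they lay above them in 2 members (PLIN2, PLIN3), against 20.3% of all genes. They lay below them in 2 (DGAT1, ANGPTL4), against 9.84%. Within each duration the epithelial sums given above were lower, and those of the 8 adipocyte markers higher, in all CSC libraries than in DMSO, with adipocyte sums of 11.6 and 13.1 FPKM in DMSO and 14.3 to 15.0 in CSC at 48 hours. The members of these lists did not all move alike: 3 of 7 epithelial markers (EPCAM, KRT19, CLDN4) had a positive log2 change with CSC at 48 hours and 1 of 7 (KRT19) at 2 weeks, and 0 of 7 were called at either duration. Most of the epithelial sum was KRT7, KRT8 and KRT18, with means of 964, 1023 and 1025 FPKM in DMSO at 48 hours. EPCAM, CDH1 and CLDN4 had means of 3.24, 7.92 and 1.12 there, so that the sum largely restates these 3 keratins. Most of the adipocyte sum was PPARG, while CIDEC had negative changes of -0.72 and -0.32 that did not pass (limma adjusted p = 0.583 and 0.514). Of the 3 adipocyte markers tested, 2 (PPARG and LIPE) had a positive log2 change at each duration. The part of these lists in the change of PLIN2 was not tested.

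PLIN3 (chromosome 19, positions 4838346 to 4867780), the perilipin that binds new droplets from the cytosol, was the more abundant coat gene, at 14.4 to 27.8 FPKM. In DMSO it hardly varied, at 17.9 and 17.6 at 48 hours and 19.5, 18.9 and 19.0 at 2 weeks. In CSC it ranged from 21.3, 19.6 and 14.4 at 48 hours to 27.8, 20.0 and 25.4 at 2 weeks. With the FPKM as deposited, the 3 CSC libraries of 2 weeks lay above the 3 DMSO libraries, as 20.3% of all genes did. The margin was narrow, 20.0 against 19.5, and the order was not counted under other scalings. The log2 change of 0.33 ± 0.15 missed the threshold (limma adjusted p = 0.190). Within a library the ratio of PLIN2 to PLIN3 does not depend on how the libraries are scaled. It was 0.258 and 0.308 in DMSO and 0.404 to 0.509 in CSC at 48 hours, and 0.238 to 0.291 in DMSO and 0.344 to 0.423 in CSC at 2 weeks, so that the CSC and DMSO libraries did not overlap at either duration. The other perilipins were near 0: PLIN1, the adipocyte form, did not exceed 0.16 FPKM, PLIN4 0.36 and PLIN5, the form of oxidative tissues, 0.12.

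Neither triacylglycerol synthase passed the test for CSC. DGAT1 (chromosome 8, positions 145538247 to 145550567) lay between 7.97 and 10.7 FPKM in the 11 libraries. At 2 weeks its CSC libraries, at 8.66, 8.19 and 7.97, were all just below its DMSO libraries, at 10.7, 8.78 and 8.98, an order that 9.84% of all genes show. The log2 change was -0.18 (95% interval -0.42 to 0.05, adjusted p = 0.317), and 0.09 at 48 hours (-0.18 to 0.35). The deposited DGAT1 locus overlaps that of HSF1, at 22.4 to 34.7 FPKM, and without a stated strand setting reads of the shared part cannot be told apart. DGAT2 (chromosome 11, positions 75479778 to 75512581) was the least abundant member, at 0.897 to 1.68 FPKM, and its deposited bounds lay 40.6% of the value from their middle in the median library. It stood at 0.897 and 0.973 in DMSO and at 1.44, 1.39 and 1.68 in CSC at 48 hours, an order without overlap that 11% of all genes show. The log2 change of 0.48 ± 0.19 did not pass (adjusted p = 0.501), and at 2 weeks it was 0.02 (-0.35 to 0.40), negative under all 3 other scalings, with 1.5, 1.44 and 0.941 in DMSO and 1.53, 1.32 and 1.09 in CSC.

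PNPLA2 (chromosome 11, positions 818901 to 825571), which encodes the first lipase of droplet breakdown, was at 12.8 and 15.1 FPKM in DMSO and at 11.8, 11.6 and 16.6 in CSC at 48 hours. At 2 weeks it was at 16.3, 15.8 and 14.7 in DMSO and at 19.6, 14.7 and 15.6 in CSC. The groups overlapped at both durations, and the log2 changes with CSC were -0.08 (-0.44 to 0.28) and 0.08 (-0.24 to 0.41), the second negative under all 3 other scalings. ABHD5, the cofactor that activates this lipase, stood between 1.53 and 2.53 FPKM, and G0S2, its inhibitor, between 0.59 and 1.82. Neither passed the test in either CSC comparison (adjusted p between 0.549 and 0.891).

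**Figure D2:**
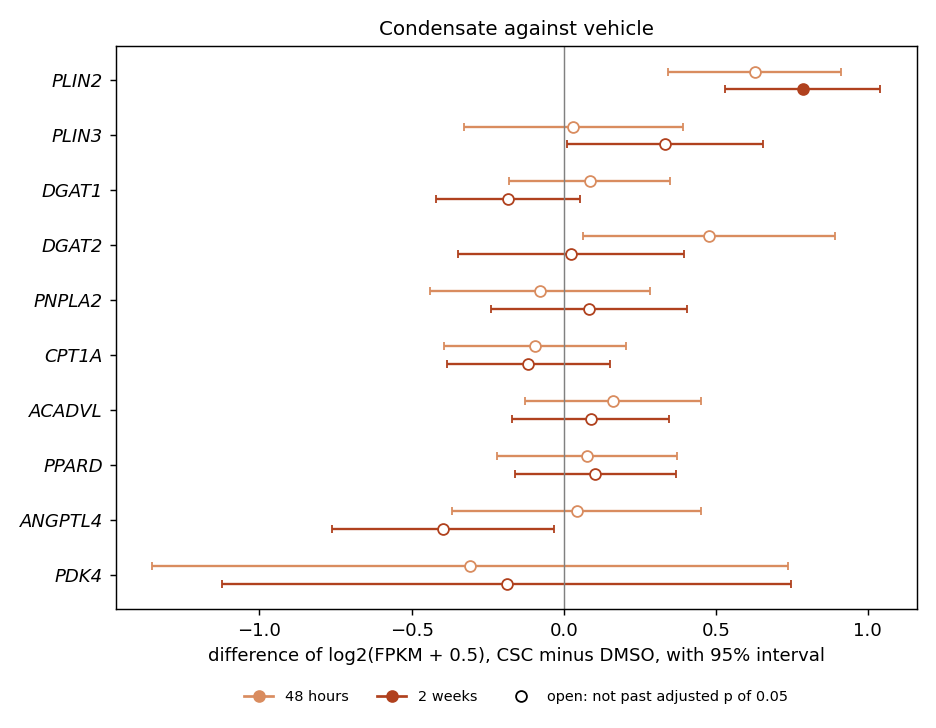
Difference of log2(FPKM + 0.5), CSC minus DMSO, for the 10 genes (rows) at 48 hours and 2 weeks, with 95% intervals from the limma fit. Filled points passed an adjusted p of 0.05; the only one is PLIN2 at 2 weeks, at 0.79, and its interval at 48 hours also lies above 0.

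ANGPTL4 passed the test of 2 weeks against 48 hours in both exposures, and PDK4 and CPT1A passed it in CSC only. None of these 3 passed the test for CSC. The labels give only how long the cells were treated, so treatment time, time in culture and separate runs cannot be told apart. ANGPTL4 (chromosome 19, positions 8429011 to 8439257), a secreted inhibitor of lipoprotein lipase, stood at 9.72 and 6.54 FPKM in DMSO and at 6.36, 8.38 and 10.4 in CSC at 48 hours. At 2 weeks it stood at 31.8, 28.3 and 27.6 in DMSO and at 22.7, 22.8 and 20.6 in CSC. Every library of 2 weeks lay above every library of 48 hours. The rise over time was 1.81 ± 0.19 in DMSO (limma adjusted p = 5.97e-04) and 1.37 ± 0.17 in CSC (adjusted p = 0.00173), and both passed in all 22 alternative fits. At 2 weeks the 3 CSC libraries were below the 3 DMSO libraries, an order that 9.84% of all genes show. The log2 change of -0.40 ± 0.17 did not pass (limma adjusted p = 0.174, and between 0.0518 and 0.374 in the alternatives). The difference between the CSC effects, which is also the difference between the time effects, was -0.44 ± 0.25 (adjusted p = 0.728).

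PDK4 (chromosome 7, positions 95212809 to 95225925), a kinase that switches off pyruvate dehydrogenase and thereby spares glucose when fat is burnt, had the widest relative range of the 10, from 2.60 to 25.5 FPKM. At 48 hours it was uneven within groups, at 4.07 and 13.6 in DMSO replicates 2 and 3 and at 6.78, 2.60 and 11.6 in CSC replicates 1 to 3. The unevenness followed the replicate number, with replicate 2 lowest and replicate 3 highest in both exposures, and the intervals below come from a fit without a replicate block. At 2 weeks the libraries lay close together, at 23.3, 25.5 and 21.2 in DMSO and at 19.5, 21.3 and 20.3 in CSC. The log2 change over time was 1.69 ± 0.43 in CSC (adjusted p = 0.0305) and 1.57 ± 0.48 in DMSO (adjusted p = 0.168). The call in CSC did not hold under median-of-ratios scaling (0.0870), a common sum (0.0883) or quantile normalization (0.103), nor without CSC 48 hours replicate 1 (0.0515) or 2 (0.0731) or CSC 2 weeks replicate 1 (0.0885) or 3 (0.0688). It was also lost without a filter (0.0796), with a robust variance model (0.0650) and in a fit of the CSC libraries alone (0.0723). With CSC the log2 changes were -0.31 at 48 hours (-1.35 to 0.74) and -0.19 at 2 weeks (-1.12 to 0.75), intervals that leave room for a large change either way. The other kinases of this enzyme spanned narrower ranges, PDK1 at 1.24 to 1.96 FPKM, PDK2 at 4.05 to 7.57 and PDK3 at 3.80 to 5.68. PDK2 and PDK3 stood above PDK4 in replicate 2 of DMSO and of CSC at 48 hours and below it in the other 9 libraries. By limma 0 of these 3 kinases were called in either CSC comparison, and 0 had an unadjusted p under 0.05.

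CPT1A (chromosome 11, positions 68522088 to 68609399) stood at 17.3 and 18.7 FPKM in DMSO and at 19.1, 15.1 and 16.5 in CSC at 48 hours. At 2 weeks it stood at 29.3, 28.3 and 25.8 in DMSO and at 25.4, 29.6 and 22.3 in CSC. As for ANGPTL4 and PDK4, the libraries of 2 weeks were all above those of 48 hours. The log2 change over time was 0.59 ± 0.12 in CSC (adjusted p = 0.0186) and 0.61 ± 0.14 in DMSO (adjusted p = 0.0666). In CSC it fell to 0.29 with a common sum (adjusted p = 0.207), 0.35 under quantile normalization (0.163) and 0.40 under median-of-ratios scaling (0.106), and the call was also lost without CSC 48 hours replicate 2 (0.0570) or CSC 2 weeks replicate 1 (0.0569), and in a fit of the CSC libraries alone (0.0808). Relative to ACADVL within a library, CPT1A was at 0.412 and 0.447 in DMSO and 0.334 to 0.403 in CSC at 48 hours, and at 0.508 to 0.569 and 0.396 to 0.641 at 2 weeks, so that the libraries of DMSO separated by time and those of CSC overlapped. With CSC its log2 change was -0.09 at 48 hours (-0.39 to 0.20) and -0.12 at 2 weeks (-0.38 to 0.15).

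ACADVL (chromosome 17, positions 7120444 to 7128586) was the most abundant member, at 41.8 to 64.0 FPKM. It stood at 41.9 and 41.8 in DMSO and at 47.3, 44.0 and 49.5 in CSC at 48 hours, and at 53.4, 49.7 and 50.8 in DMSO and 64.0, 46.1 and 55.0 in CSC at 2 weeks. Its log2 changes with CSC, 0.16 (-0.13 to 0.45) and 0.09 (-0.17 to 0.35), did not pass, and the second turned negative under median-of-ratios and common-sum scaling. Its locus overlaps that of DLG4, at 2.07 to 5.20 FPKM, with the same limit as for DGAT1. PPARD (chromosome 6, positions 35310335 to 35395968), the receptor, was at 2.18 and 2.30 in DMSO and 2.30, 2.39 and 2.46 in CSC at 48 hours, and at 2.84, 2.57 and 2.68 in DMSO and 3.35, 2.49 and 3.02 in CSC at 2 weeks. Its log2 changes with CSC were 0.08 (-0.22 to 0.37) and 0.10 (-0.16 to 0.37), the second negative with a common sum. CSC 2 weeks replicate 1 held the highest value of the 11 libraries for ACADVL, PPARD, PNPLA2, PLIN3 and PLIN2, and it also had the largest sum of FPKM, 484053 against 338507 to 413718 in the others.

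Over time in DMSO 1 of the 10 members was called higher (ANGPTL4) and 0 lower, against 0.768% of all genes called, 0.656% higher and 0.112% lower. In CSC 3 were higher (ANGPTL4, PDK4, CPT1A) and 0 lower, against 13.7% called, 12.3% higher and 1.38% lower, and under each of the 3 other scalings ANGPTL4 alone was higher. With a common sum DGAT1 was called lower over time in CSC (-0.45, adjusted p = 0.0369). In 4 of the 10 members (ANGPTL4, PDK4, CPT1A and PPARD) all libraries of 2 weeks lay above all of 48 hours, an order shown by 6.84% of all genes. Counted by exposure, the libraries of 2 weeks lay above those of 48 hours in 6 members in DMSO (28.8% of all genes) and 4 in CSC (28.4%), and below them in 0 (7.88% and 4.47%). The contrast over time in DMSO and the CSC contrast at 2 weeks share the DMSO libraries of 2 weeks, and the time contrasts in DMSO and CSC share none. COL1A1, the 1 of 7 fibroblast markers at an FPKM of 1, was called higher over time in DMSO (log2 change 1.08) and in CSC (0.80). The summed level of that list was 4.17 to 6.88 FPKM in the libraries of 48 hours and 7.44 to 12.1 in those of 2 weeks. The epithelial sums were higher at 2 weeks in both exposures, with 0 of 7 markers called in DMSO and 2 of 7 called higher in CSC. CD14, the 1 of 7 leukocyte markers at an FPKM of 1, was called higher over time in CSC (1.15) and not in DMSO (0.33). It belongs to a list with sums of 1.23 to 2.69 at 48 hours, 2.27 to 2.80 in DMSO at 2 weeks and 3.55 to 4.24 in CSC at 2 weeks. Their part in the time changes was not tested. In bulk RNA, fewer cells of a type and less RNA per cell cannot be told apart.

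**Figure D3:**
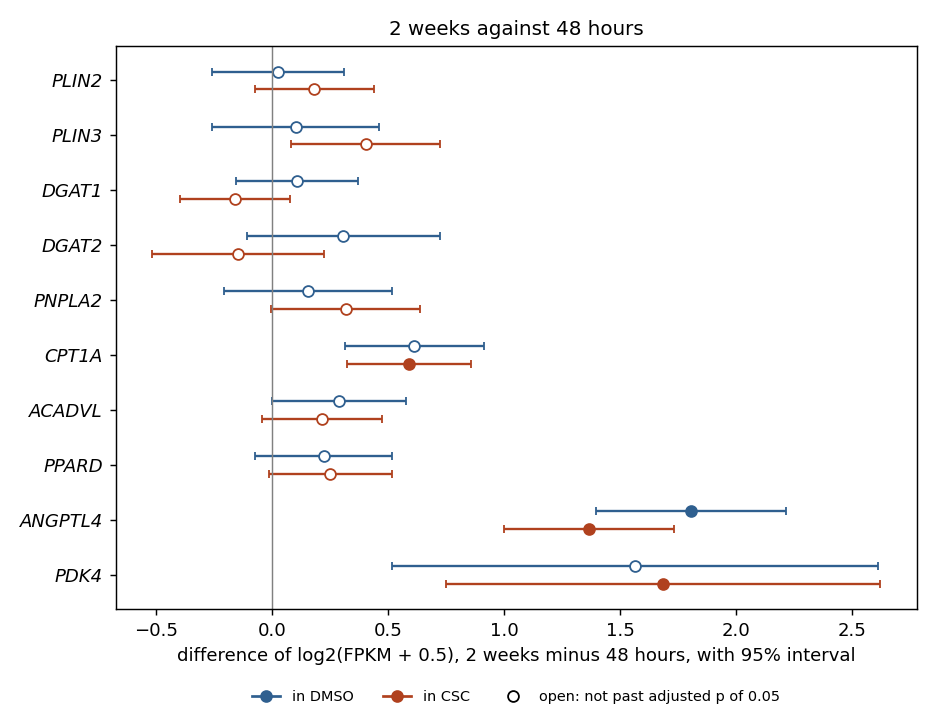
Difference of log2(FPKM + 0.5), 2 weeks minus 48 hours, for the 10 genes (rows) in DMSO and in CSC, with 95% intervals from the limma fit. Filled points passed an adjusted p of 0.05. ANGPTL4, at 1.81 and 1.37, passed in both; CPT1A and PDK4 have like values in both exposures and passed in CSC.

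The wider lipid droplet list (24 genes, 16 tested) held 1 gene called higher and 2 called lower with CSC than with DMSO at 2 weeks, against the 3.01% and 2.4% of all genes, shares that hold for the lists that follow too. By limma 0 were called at 48 hours, where 3 had an unadjusted p under 0.05. HILPDA, a droplet protein that inhibits ATGL and is known as a hypoxia-induced gene, stood at 10.5, 10.7 and 9.64 FPKM in DMSO and at 30.7, 23.0 and 23.8 in CSC at 2 weeks, a log2 change of 1.28 ± 0.25 (limma adjusted p = 0.0121). At 48 hours it was at 7.99 and 15.3 in DMSO and 12.2, 7.48 and 15.4 in CSC, with a change of 0.02. As for PDK4, replicate 2 was lowest and replicate 3 highest in both exposures at 48 hours. The difference of these effects, 1.26 ± 0.37, did not pass over all genes (adjusted p = 0.568). LPCAT1, a phosphatidylcholine enzyme of droplets and surfactant, was at 48.7 ± 2.83 FPKM in DMSO and 24.0 ± 2.16 in CSC at 2 weeks (SD, n = 3 each, log2 change -1.01 ± 0.17, limma adjusted p = 0.00599). Its means at 48 hours were 31.7 in DMSO and 22.2 in CSC, so that the DMSO mean was higher at 2 weeks while the CSC mean was nearly level. FITM2, which helps droplets to form at the endoplasmic reticulum, was at 14.6 ± 0.859 in DMSO and 8.51 ± 1.36 in CSC at 2 weeks (-0.76 ± 0.18, limma adjusted p = 0.0323). Its means at 48 hours were 7.72 in DMSO and 4.82 in CSC, so that the means of both exposures were higher at 2 weeks. HILPDA lost its call without DMSO 2 weeks replicate 3 (0.0575), without CSC 2 weeks replicate 1 (0.0584) and without a filter (0.0515), and FITM2 without any of the 3 DMSO libraries of 2 weeks (0.0849 to 0.105), without CSC 2 weeks replicate 1 (0.0653) or 3 (0.140) and without a filter (0.0877). Over time in DMSO, 0 of the 16 tested genes of this list were called by limma, against 0.768% of all genes. Over time in CSC, 4 were called higher, against 12.3% of all genes.

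Among the genes of fatty acid uptake and activation (32, 21 tested), 1 was called higher and 1 lower with CSC than with DMSO at 2 weeks. ACSM3, a mitochondrial acyl-CoA synthetase of medium chains, went from 3.07 ± 0.412 to 8.19 ± 1.94 FPKM (1.27 ± 0.27, adjusted p = 0.0201). SLC27A2, a fatty acid transporter and very long-chain acyl-CoA synthetase, was at 35.4 ± 3.11 FPKM in DMSO and 17.4 ± 2.96 in CSC (-1.01 ± 0.18, limma adjusted p = 0.00679). Its means at 48 hours were 26.7 in DMSO and 19.5 in CSC. The ACSM3 call ended without any 1 of the DMSO libraries of 2 weeks (0.0513 to 0.0791), without CSC 2 weeks replicate 1 (0.0935) or 3 (0.0562) and without a filter (0.0747). In the lipolysis list (16, 13 tested) ABHD12, a lipase of lysophospholipids and monoacylglycerol, was called lower with CSC. At 2 weeks it was at 52.5 ± 3.51 in DMSO and 37.1 ± 4.45 in CSC (-0.50 ± 0.11, limma adjusted p = 0.0265). Its means at 48 hours were 37.8 in DMSO and 25.7 in CSC, so that the means of both exposures were higher at 2 weeks. The call ended without any 1 of the DMSO libraries of 2 weeks (0.0569 to 0.103) or without CSC 2 weeks replicate 3 (0.122). Over time in DMSO, 0 of the 13 tested lipolysis genes were called by limma, against 0.768% of all genes. Over time in CSC, 3 were called higher, against 12.3% of all genes. The triacylglycerol synthesis list (17, 12 tested) held 0 called genes in either CSC comparison by limma, with an unadjusted p under 0.05 in 2 of 12 genes at 48 hours and 5 of 12 at 2 weeks, beside 8.49% and 24.6% of all genes.

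In the carnitine shuttle and mitochondrial beta-oxidation list (28, 26 tested), SLC22A5, the plasma membrane carnitine transporter, was called lower with CSC than with DMSO at 2 weeks. ETFA, a subunit that carries electrons from acyl-CoA dehydrogenases, was called higher. SLC22A5 stood at 19.0, 16.9 and 16.8 FPKM in DMSO and at 10.1, 10.1 and 7.71 in CSC (-0.89 ± 0.12, adjusted p = 0.00105). It was at 11.5 and 10.1 in DMSO of 48 hours and at 8.80, 9.79 and 9.45 in CSC of 48 hours. It was also the list's only gene called over time in DMSO (0.68 ± 0.13, limma adjusted p = 0.0348). ETFA changed by 0.42 ± 0.11 (adjusted p = 0.0455), and missed the threshold with a common sum (0.0696), under quantile normalization (0.0614), without a filter (0.0514), in a fit of only the 2-week libraries (0.0680) and in 9 of the 11 fits that leave out 1 library. The trifunctional protein subunits HADHA and HADHB, the medium-chain dehydrogenase ACADM and CPT2, the inner partner of CPT1A, had changes of 0.26, 0.28, 0.16 and 0.27 at 2 weeks, and none of these 4 passed (adjusted p between 0.168 and 0.431). The list's median was 0.26, beside 0.09 for all genes. Over time in CSC 10 of its 26 tested genes were called higher as deposited, HADHA and HADHB among them, against 12.3% of all genes, and 1 under each of the 3 other scalings. The peroxisomal list (20, 18 tested) and the pyruvate dehydrogenase list (12, 12 tested) held 0 called genes in either CSC comparison by limma, with an unadjusted p under 0.05 in 2 of 18 and 1 of 12 genes at 48 hours and in 6 of 18 and 3 of 12 at 2 weeks, beside the same shares of all genes (8.49% and 24.6%).

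Of the PPAR receptors, PPARG was the most abundant, at 10.2 to 17.9 FPKM beside 2.18 to 3.35 for PPARD and 0.27 to 0.73 for PPARA, which was under the filter and not tested. PPARG stood at 10.2 and 11.1 in DMSO and at 13.7, 13.1 and 12.4 in CSC at 48 hours, and at 11.7, 12.2 and 10.3 in DMSO and 17.9, 14.6 and 17.0 in CSC at 2 weeks. Like those of PLIN2, its CSC libraries lay above all of its DMSO libraries. It rose by 0.51 ± 0.11 at 2 weeks (adjusted p = 0.0168) and changed by 0.28 ± 0.12 at 48 hours (adjusted p = 0.537), and the call at 2 weeks was lost without DMSO 2 weeks replicate 1 (0.0570) or 3 (0.0886) or without CSC 2 weeks replicate 1 (0.0706) or 3 (0.0838). It was the only called gene of 15 tested in the list of PPAR receptors, partners and cofactors (18 genes), and HILPDA, also a gene of the droplet list, was the only one of 9 tested in the list of other PPAR targets (24 genes). PPARG is also in the adipocyte list, of which the defining markers FABP4 was listed at 0 in all libraries and ADIPOQ did not exceed 0.03 FPKM. The summed level of the 8 adipocyte markers was 12.8 to 14.9 FPKM in DMSO and 17.1 to 21.0 in CSC at 2 weeks, of which PPARG alone made 10.3 to 12.2 and 14.6 to 17.9, so that the sum largely restates PPARG. CIDEC, of the same list, stood at 1.46 to 1.88 in DMSO and 0.991 to 1.36 in CSC at 2 weeks. LIPE went the other way, at 0.903 to 0.945 in DMSO and 1.07 to 1.64 in CSC.

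**Figure D4:**
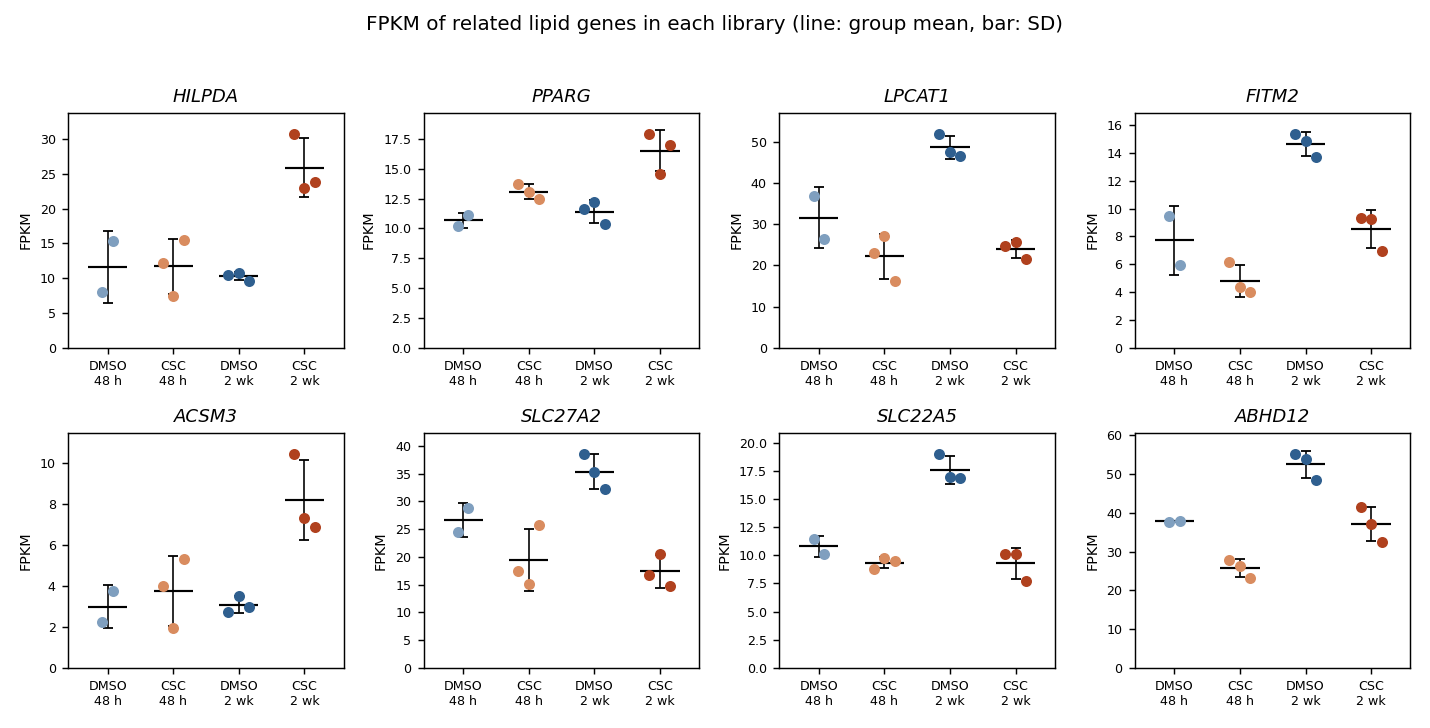
FPKM (vertical axis, from 0) of 8 genes of the wider lipid lists that were called for CSC at 2 weeks, in each library by group, with group means and SD. HILPDA, PPARG and ACSM3 are higher in CSC at 2 weeks, and LPCAT1, FITM2, SLC27A2, SLC22A5 and ABHD12 are lower.

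The 3 genes outside the members whose log2 values ran most closely with PLIN2 over the 11 libraries were SLC27A5 (Pearson r = 0.956), NPAS2 (0.956) and HIPK2 (0.951). These correlations describe the libraries, which share their split into CSC and DMSO and their differences in scale.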

How the data were processed

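RNA of 11 A549 libraries was depleted of ribosomal RNA (Ribo-Zero Gold), sequenced on a HiSeq2000 and aligned to hg19 with TopHat2 2.0.9 through BaseSpace, per the labels' protocols, and the submitters' processing notes also list CASAVA 1.7.1a5. The authors deposited an FPKM with a lower and an upper bound per gene and locus. The quantifier, annotation, strand setting and scaling are not stated there. FPKM were summed over loci per symbol, and 1 gene with a failed estimate was left out. The 12506 genes that reached an FPKM of 1 in 2 or more libraries entered limma 3.58.1 in R 4.3.3 (1 fit of 4 groups, eBayes with trend, no replicate block, pseudocount 0.5, Benjamini-Hochberg over all genes). The fit was tested on simulated data. Named are all 10 members, a few fixed partners, up to 4 called genes per list and the 3 genes most like a called member. Members and lists were chosen with earlier results of these data known. The alternatives were other pseudocounts, filters, scalings, variance models, a replicate block, a fit restricted to the groups compared and each library left out. Locus starts in the files count from 0 and are given from 1.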

Additional observations from a re-analysis of the deposited data

How the results depend on the processing

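All 22 alternatives kept the call of PLIN2 with CSC at 2 weeks and both calls of ANGPTL4 over time. For CSC at 48 hours 1 member (PLIN2) was higher under median-of-ratios scaling, a common sum and quantile normalization. Over time in CSC 1 member (ANGPTL4) was higher under each of these scalings and in a fit restricted to the groups compared, and with a common sum 1 (DGAT1) was lower. Over time in DMSO 3 members (ANGPTL4, PDK4, CPT1A) were higher in a fit restricted to the groups compared. With 1 library left out, the members called higher ranged from 0 to 1 for CSC at 48 hours, from 1 to 2 over time in DMSO and from 1 to 5 over time in CSC, where 5 were called without CSC 2 weeks replicate 2 and 1 without CSC 48 hours replicate 2 or CSC 2 weeks replicate 1. With the filter at an FPKM of 5, DGAT2 and PPARD gave no value.

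Signs turned only in values that did not pass as reported. Median-of-ratios scaling gave -0.048 for DGAT2, -0.017 for PNPLA2, -0.014 for ACADVL and -0.019 for PDK3 for CSC at 2 weeks and -0.061 for PPARD in the difference of the CSC effects. It also gave -0.063 for PLIN2 over time in DMSO and -0.0061 for PLIN2 over time in CSC. A common sum of FPKM gave 0.0030 for HADHA and 0.024 for PDK1 for CSC at 48 hours and -0.076 for DGAT2, -0.055 for PNPLA2, -0.053 for ACADVL, -0.018 for PPARD and -0.054 for PDK3 for CSC at 2 weeks. It also gave -0.022 for PLIN2, -0.018 for PNPLA2, -0.13 for PPARD and -0.055 for PDK4 in the difference of the CSC effects, -0.084 for PLIN2, -0.013 for PLIN3 and -0.0046 for DGAT1 over time in DMSO and -0.11 for PLIN2, -0.086 for ACADVL and -0.0059 for PPARD over time in CSC. Quantile normalization gave 0.025 for HADHA for CSC at 48 hours and -0.0091 for DGAT2 and -0.0079 for PNPLA2 for CSC at 2 weeks. It also gave -0.048 for PLIN2 and -0.020 for PLIN3 over time in DMSO and -0.065 for ACADVL over time in CSC. The cause was not tested.

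The replicate block changed no call of a member. With the block, values were -0.042 for PLIN3, -0.050 for HILPDA and 0.0036 for PDK1 for CSC at 48 hours and 0.019 for CPT1A in the difference of the CSC effects. It also gave -0.031 for PLIN2 over time in DMSO. ABHD12 passed at 48 hours with it (-0.61, limma adjusted p = 0.0464). Deviations of same-numbered libraries correlated between -0.20 and 0.31, with a median of 0.046 against -0.043 for other pairs. Between DMSO and CSC at 48 hours they correlated at 0.21 for replicate 2 and 0.22 for replicate 3. With 2 DMSO libraries there, their deviations mirror each other. Since not every pair exceeded 0.1 and the labels name nothing shared, the numbers were not taken as pairs. As a hint from the data, 7 of 11 libraries correlated best with their own number. The block moved the higher and lower calls over all genes from 376 and 300 to 595 and 350 for CSC at 2 weeks, from 1536 and 172 to 2079 and 255 over time in CSC, and from 82 and 14 to 59 and 9 over time in DMSO.

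With 1 library left out, ranges that span 0 were, for CSC at 48 hours -0.086 to 0.58 for ACSM3, -0.080 to 0.24 for CPT2, -0.43 to 0.46 for HILPDA, -0.072 to 0.035 for PDK1, -0.24 to 0.038 for PNPLA2, -0.23 to 0.31 for ANGPTL4, -1.12 to 0.51 for PDK4, -0.080 to 0.20 for PLIN3, -0.098 to 0.0022 for HADHA and -0.0097 to 0.14 for HADHB. For CSC at 2 weeks they were -0.13 to 0.12 for DGAT2, -0.036 to 0.17 for PNPLA2 and -0.025 to 0.21 for ACADVL. In the difference of the CSC effects they were -0.12 to 0.075 for CPT1A, -0.054 to 0.13 for PPARD, -0.69 to 0.93 for PDK4 and -0.19 to 0.047 for ACADVL. Over time in DMSO they were -0.10 to 0.15 for PLIN2.

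Calls over all genes moved as well. Higher and lower calls for CSC at 48 hours were 13 and 23 as reported and 27 and 42 under quantile normalization. For CSC at 2 weeks they were 376 and 300, against 184 and 229 with no filter and 1310 and 534 without CSC 2 weeks replicate 2. Leaving out DMSO 2 weeks replicate 3 gave 73 and 166, and leaving out CSC 2 weeks replicate 3 gave 89 and 141. Over time in CSC they were 1536 and 172, against 152 and 251 under median-of-ratios scaling, 122 and 200 under quantile normalization, 689 and 100 without a filter, 57 and 21 in a fit restricted to the groups compared and 114 and 30 without CSC 2 weeks replicate 1. Over time in DMSO they were 82 and 14, against 409 and 48 in a fit restricted to the groups compared and 22 and 4 without DMSO 48 hours replicate 3.

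Depth limits the weakly expressed members, such as DGAT2, PPARD and PLIN2, whose deposited bounds lay 40.6%, 26% and 19.8% of the value from their middle in the median library. With 2 DMSO libraries at 48 hours, the comparisons that use them have wider intervals.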
